A study of Mus musculus with 6 samples.

Results

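The 10 genes described here are pericentral beta-catenin target genes, chosen by name from a table of 56305 mouse genes after Ensembl identifiers were matched to GRCm38 gene symbols. They are Glul, Oat, Rhbg, Slc1a2, Lect2, Tbx3, Lgr5, Axin2, Rnf43 and Znrf3, and all 10 were found. RNA was sequenced from whole livers of male mice aged 5 weeks, 3 of them WT and 3 Vps15LKO, fed ad libitum and collected at Zeitgeber time 6 (ZT6), with 1 library per liver. Vps15LKO mice are AlbCre+;Vps15 f/f. Vps15, encoded by Pik3r4, is the regulatory subunit of class 3 PI3K, and Cre is driven by the albumin promoter, which is active in hepatocytes and their precursors, so that Kupffer, stellate and endothelial cells keep the gene. Whether WT mice carried floxed alleles or Cre is not given in the sources used here. The comparison asks how the transcripts of these genes in liver differ when Vps15 is deleted in hepatocytes.

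Hepatocytes differ in gene expression along the axis from the portal vein to the central vein. Endothelial cells of the central vein secrete Wnt ligands and R-spondin 3, which stabilize beta-catenin in the neighbouring hepatocytes, and beta-catenin then activates transcription together with TCF/LEF factors. Without a Wnt signal, a destruction complex built on Axin marks beta-catenin for degradation. The genes fall into 3 kinds. Glul, Oat, Rhbg, Slc1a2 and Lect2 encode effectors, among them enzymes and transporters of glutamine, glutamate and ammonium. Tbx3 encodes a transcription factor. Lgr5, Axin2, Rnf43 and Znrf3 encode parts of the Wnt pathway itself, through which the signal is amplified or dampened.

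Values are normalized counts, the reads on a gene divided by 1 size factor per library as the authors deposited them. The libraries held 16137093 to 18110223 reads on genes. WT libraries had size factors of 0.742 to 0.801 and Vps15LKO libraries of 1.23 to 1.41, so the scaling bears on every direction given here. Scaling to equal totals of reads moved the median log2 fold change of all genes from −0.02 to 0.70, a shift of 0.72, and quantile normalization moved it by −0.09. Directions were therefore read under the deposited scaling and under both of these. Pik3r4 had normalized counts of 508, 573 and 460 in WT and 341, 362 and 355 in Vps15LKO livers, a log2 fold change of −0.54 ± 0.11 (SE, limma, adjusted p = 0.0021). Under total-read scaling its log2 fold change was 0.19 and it was not called. Cre removes exon 2 of the floxed gene and leaves a truncated product, so a count over the whole gene does not measure the deleted part and does not check the labels. Among the replicates, WT replicate 3 stood apart from the other two, and so did Vps15LKO replicate 2 from replicate 3, with a chi-square per gene of 27.9 to 33.7 against 13.0 to 13.9 in the other pairs of 1 genotype.

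The summed levels of cell type markers also differed between the genotypes. As background to the counts of calls, limma called 33.0% of all genes lower and 33.5% higher, or 11.1% and 66.8% under total-read scaling, and 73.2% of genes did not overlap between the genotypes. The 7 hepatocyte markers took up 13.9% to 14.2% of each WT library and 7.84% to 10.2% of each Vps15LKO library. Of the 7, 5 were called lower, or 2 under quantile normalization. Alb alone made up most of their sum in every liver. Its normalized counts were 2030860 to 2350420 in WT livers, where the 7 summed to 3041440 to 3359710. For Vps15LKO livers they were 620735 to 968935, against sums of 1000890 to 1490260. The marker share is thus mostly that of Alb, and a share without Alb was not worked out. Under the deposited scaling the livers did not overlap for any of the 7, and Alb and Tf were the 2 not called. Both are very abundant genes to which limma's trend gave large standard errors (log2 fold changes of −1.48 ± 1.38 and −0.65 ± 0.58, SE). Under total-read scaling Alb was at −0.76 and Tf at 0.08, and Tf was also at 0.08 under quantile normalization. Neither gene was called under either of these scalings. Summed normalized counts of the 8 cholangiocyte and progenitor markers were 1269 to 1419 in WT and 12343 to 23812 in Vps15LKO livers, with 7 of the 7 tested called higher. Spp1 alone made up 84.3% to 86.1% of the Vps15LKO sums, and without it the sums were 776 to 838 and 1941 to 3316. The 8 stellate cell and fibroblast markers summed to 6652 to 7109 in WT and 26241 to 30565 in Vps15LKO livers, and 8 of 8 were called higher. Col1a1 and Col3a1 made up 54.8% to 60.9% of the Vps15LKO sums, and without them the sums were 5097 to 6076 and 11864 to 12275. The 8 macrophage markers summed to 6374 to 7237 and 15173 to 20388, with 6 called higher. The 8 endothelial markers summed to 6658 to 7222 and 5419 to 6953, with 4 called lower and 4 higher, but 0 lower and 5 higher under total-read scaling. In bulk liver, fewer cells of a type and less RNA per cell cannot be told apart, and the part of these shifts in the results below was not tested.

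All 10 genes passed the filter, a normalized count of 20 or more in 3 or more livers. With limma (adjusted p below 0.05, fold 1.2 or more), 6 were called lower in Vps15LKO livers (Glul, Oat, Slc1a2, Tbx3, Lgr5 and Rnf43), 1 was called higher (Axin2) and 3 were not called (Rhbg, Lect2 and Znrf3). Of the 15430 genes tested, 33.0% were called lower and 33.5% higher, and 66.5% were called in either direction. With edgeR on the recovered reads the 10 genes again gave 6 lower and 1 higher calls, against 33.4% and 33.5% of all genes (66.9% in either direction). The normalized counts of the genotypes did not overlap for 8 of the 10 genes, against 73.2% of all genes tested. The median log2 fold change of the 10 genes was −0.65, against −0.02 over all genes. It was 0.08 against 0.70 under total-read scaling, and −0.79 against −0.10 under quantile normalization. Under total-read scaling 4 of the 10 were called lower and 4 higher, against 11.1% and 66.8% of all genes (77.8% together). Under quantile normalization 7 were called lower and 2 higher, against 37.6% and 30.4% (68.0% together). Of the 10 genes, 5 were called in the same direction under all 20 alternatives tried. Glul, Oat, Slc1a2 and Tbx3 were the 4 lower ones, and Axin2 was the higher one, against 10.7% called lower and 17.9% called higher throughout among the 13101 genes tested under every alternative.

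**Figure D1:**
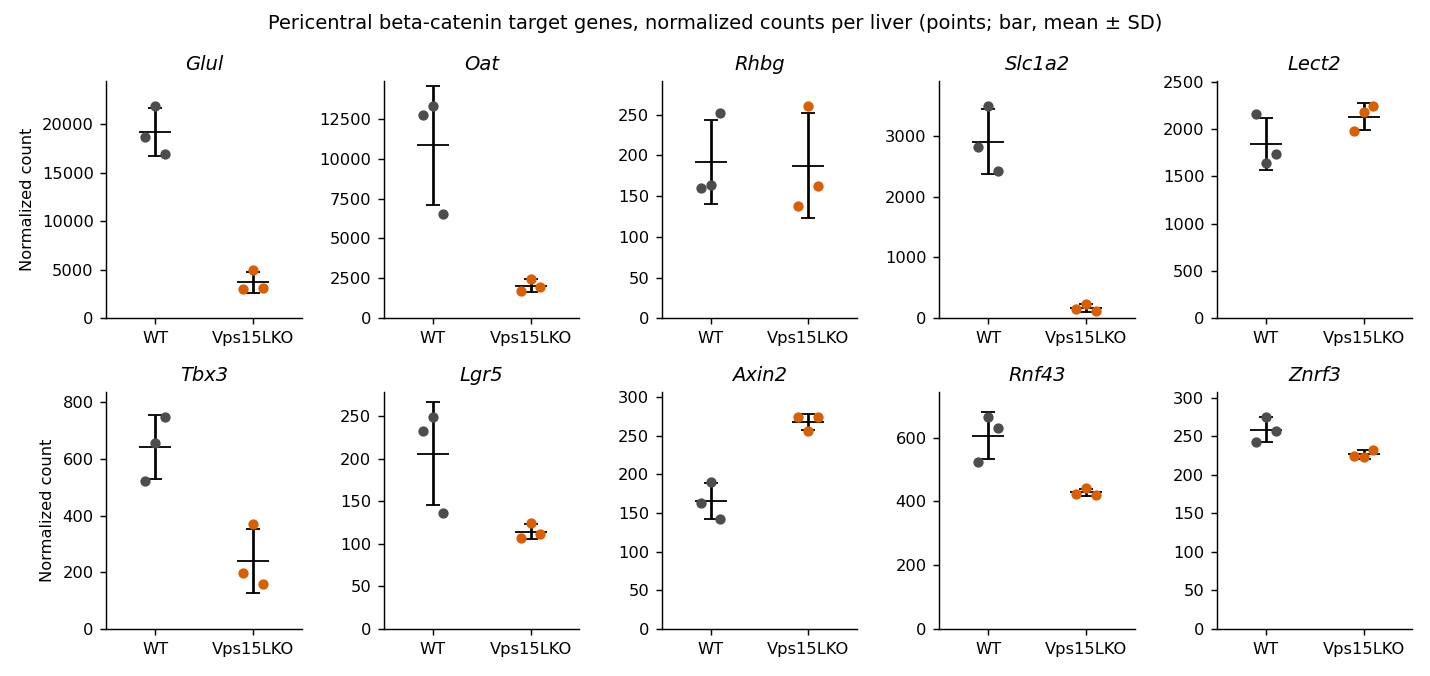
Normalized counts (vertical axis, from 0, a separate scale per gene) of the 10 genes in each WT and Vps15LKO liver, with points for livers and bars for the mean ± SD (n = 3 per genotype). Glul, Oat, Slc1a2 and Tbx3 lie lower and Axin2 higher in Vps15LKO livers without overlap, and the livers overlap for Rhbg and Lect2.

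Promoter sequence was at hand in the RefSeq table (GRCm38.p6) for 6 of the 10 genes, with 7 promoters, since Rnf43 has 2. The 250 bases before the start site are printed for the effectors with the largest falls (Glul, Oat and Slc1a2), for the gene called higher (Axin2), and for Lect2, which with Slc1a2 holds a TCF/LEF word. They are chr1:153899679-153899928 (plus strand, Glul), chr7:132576399-132576648 (minus strand, Oat), chr2:102706188-102706437 (plus strand, Slc1a2), chr11:108920099-108920348 (plus strand, Axin2) and chr13:56548539-56548788 (minus strand, Lect2). Each is written 5′ to 3′ on the strand of the gene and ends at the base before the start site, and capitals mark a TCF/LEF word.
Glul: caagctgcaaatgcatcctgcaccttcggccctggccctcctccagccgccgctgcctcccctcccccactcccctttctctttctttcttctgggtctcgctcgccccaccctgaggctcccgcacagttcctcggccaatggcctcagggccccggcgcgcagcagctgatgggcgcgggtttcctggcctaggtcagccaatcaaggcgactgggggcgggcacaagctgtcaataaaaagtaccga
Oat: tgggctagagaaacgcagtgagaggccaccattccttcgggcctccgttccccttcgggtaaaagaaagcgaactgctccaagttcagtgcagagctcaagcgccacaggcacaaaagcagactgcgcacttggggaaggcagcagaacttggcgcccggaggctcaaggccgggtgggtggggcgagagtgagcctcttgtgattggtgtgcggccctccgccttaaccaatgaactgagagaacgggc
Slc1a2: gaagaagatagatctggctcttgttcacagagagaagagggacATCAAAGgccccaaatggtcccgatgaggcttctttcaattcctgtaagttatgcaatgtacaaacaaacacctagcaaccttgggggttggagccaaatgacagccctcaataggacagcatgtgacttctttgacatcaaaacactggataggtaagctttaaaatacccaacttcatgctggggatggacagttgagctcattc
Axin2: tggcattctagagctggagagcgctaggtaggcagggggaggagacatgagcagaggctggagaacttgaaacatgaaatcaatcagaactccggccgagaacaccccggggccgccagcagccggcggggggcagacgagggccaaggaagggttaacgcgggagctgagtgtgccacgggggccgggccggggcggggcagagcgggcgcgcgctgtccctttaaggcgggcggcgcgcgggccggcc
Lect2: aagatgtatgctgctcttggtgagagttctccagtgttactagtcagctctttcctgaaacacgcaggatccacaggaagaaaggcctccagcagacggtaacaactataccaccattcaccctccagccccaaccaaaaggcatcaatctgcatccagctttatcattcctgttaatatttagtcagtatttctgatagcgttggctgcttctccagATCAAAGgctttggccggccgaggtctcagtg
The TCF/LEF words searched, on both strands, were CTTTGAA and the related word CTTTGAT, together with the variants CTTTGTA as well as CTTTGTT, and the E-box bound by Bmal1 and Clock was searched as CACGTG. A TCF/LEF word began 207 bases upstream of the start in Slc1a2 and 32 bases upstream in Lect2, in each case as CTTTGAT on the strand opposite to the gene, printed above as ATCAAAG. The other 5 promoters held none, and 14.8% of 32851 promoters of this length held at least 1. CACGTG was in 0 of the 7 promoters and in 6.02% of all. The RefSeq start used for Slc1a2 lies inside the gene as GENCODE places it, so the window is that of an internal start. A match is a description of the letters, and the Glul and Axin2 windows, which hold no match, belong to genes that moved in opposite directions.

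Glul encodes glutamine synthetase, which joins ammonium to glutamate in the hepatocytes next to the central vein. The gene lies at chr1:153899944-153909723 on the plus strand (ENSMUSG00000026473). Its normalized counts were 18733, 21847 and 16973 in WT and 3042, 4941 and 3158 in Vps15LKO livers. Every Vps15LKO liver was below every WT liver. The Vps15LKO mean was 19.4% of the WT mean, and the log2 fold change was −2.40 ± 0.20 (SE, limma, adjusted p = 1.8e-05). It was −1.67 under total-read scaling and −1.51 under quantile normalization, called lower in each. Mir8114 shares 93 exonic bases with Glul on the same strand and Teddm2 shares 116 on the other strand, and their log2 fold changes were −2.26 and −2.28, so reads of the 3 genes may have been split in the counting.

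Oat encodes ornithine aminotransferase, a mitochondrial enzyme that links ornithine to glutamate and proline, and it is found in the same pericentral hepatocytes as Glul. It lies at chr7:132557478-132576398 on the minus strand. Normalized counts were 12729, 13278 and 6559 in WT and 1685, 2482 and 1940 in Vps15LKO livers. WT replicate 3 was well below the other WT livers, and no Vps15LKO liver reached it. The log2 fold change was −2.36 ± 0.27 (SE, limma, adjusted p = 8.9e-05), and it was −2.69 without WT replicate 3. Total-read scaling gave −1.64 and quantile normalization −1.69, both called lower.

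Slc1a2 encodes a glutamate transporter of the plasma membrane and had the largest fall of the 10 genes. It lies at chr2:102658659-102790784 on the plus strand. Normalized counts were 2811, 3481 and 2416 in WT and 148, 234 and 112 in Vps15LKO livers. The highest Vps15LKO liver was far below the lowest WT liver. The WT mean was 17.6 times the Vps15LKO mean, and the log2 fold change was −4.18 ± 0.25 (SE, limma, adjusted p = 3.5e-06). Of all genes tested, 0.551% had a lower log2 fold change. It was −3.46 under total-read scaling and −4.11 under quantile normalization. Gm13872, an antisense gene sharing 189 exonic bases with it, went from 276, 324 and 181 to 9.16, 13.0 and 5.66, and its log2 fold change was −4.69.

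Rhbg, which encodes an ammonium transporter, did not follow Glul. Its normalized counts were 160, 164 and 252 in WT and 138, 260 and 163 in Vps15LKO livers. The livers of the genotypes overlapped over nearly their whole range. The log2 fold change was −0.06 (95% confidence interval −0.65 to 0.53, limma, adjusted p = 0.85), so a fall of the size seen in Glul lies outside the interval. Its sign changed with the scaling, and it was called higher at 0.66 under total-read scaling and not called at −0.31 under quantile normalization. Rhbg shares 1190 of its 1937 exonic bases with Gm38392 on the same strand, so its level is uncertain.

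Lect2 encodes a protein that hepatocytes secrete. Normalized counts were 2160, 1641 and 1740 in WT and 1979, 2184 and 2241 in Vps15LKO livers. WT replicate 1 lay within the Vps15LKO range, and the other WT livers lay below it. The log2 fold change was 0.22 (95% confidence interval −0.06 to 0.49, limma, adjusted p = 0.14). Lect2 was called higher under total-read scaling at 0.94, under quantile normalization at 0.65 and without WT replicate 1 at 0.33. No alternative gave a negative value.

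Tbx3 encodes a T-box transcription factor that is expressed in pericentral hepatocytes. Normalized counts were 522, 658 and 748 in WT and 196, 370 and 157 in Vps15LKO livers. The Vps15LKO livers were lower without overlap, and replicate 2 was nearest to WT. The log2 fold change was −1.49 ± 0.29 (SE, limma, adjusted p = 0.0017), and it was −0.77 under total-read scaling and −1.56 under quantile normalization, called lower in each. Tbx3os1, an antisense gene sharing 115 exonic bases, fell from 94.1, 124 and 99.8 to 8.40, 29.2 and 5.66. Vps15LKO replicate 2 also had the highest hepatocyte marker share of reads (10.2%) and the lowest cholangiocyte and progenitor marker sum (12343) of its group. Whether these bear on its Tbx3 level was not tested.

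Among the genes of the Wnt pathway, Axin2 rose. Axin2 is a scaffold of the destruction complex and the target most often used as a readout of beta-catenin activity. Normalized counts were 163, 190 and 143 in WT and 274, 256 and 274 in Vps15LKO livers. The lowest Vps15LKO liver was above the highest WT liver. The log2 fold change was 0.70 ± 0.13 (SE, limma, adjusted p = 0.0014), or 1.62 times the WT mean. It was called higher under total-read scaling at 1.43 and under quantile normalization at 0.51. Gm11670, an antisense gene sharing 209 exonic bases with Axin2, held 179 reads in the 6 livers together.

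Lgr5 encodes an R-spondin receptor. Its normalized counts were 232, 249 and 136 in WT and 107, 124 and 111 in Vps15LKO livers. WT replicate 3 was close to the Vps15LKO livers and did not overlap them. The log2 fold change was −0.80 ± 0.22 (SE, limma, adjusted p = 0.012). It was −1.13 under quantile normalization, called lower, and −0.08 under total-read scaling, where it was not called.

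Rnf43 and Znrf3 encode membrane ubiquitin ligases that remove Wnt receptors from the cell surface. Rnf43 normalized counts were 525, 665 and 631 in WT and 423, 441 and 422 in Vps15LKO livers. They did not overlap, and the log2 fold change was −0.49 ± 0.11 (SE, limma, adjusted p = 0.0036). Under quantile normalization it was −0.45, called lower, and under total-read scaling it was 0.23 and not called. Znrf3 had 243, 275 and 257 in WT and 224, 223 and 233 in Vps15LKO livers. The livers did not overlap, but the log2 fold change was −0.19 (95% confidence interval −0.42 to 0.05, limma, adjusted p = 0.14). Znrf3 was called lower at −0.34 under quantile normalization and higher at 0.54 under total-read scaling, so its direction was set by the scaling.

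**Figure D2:**
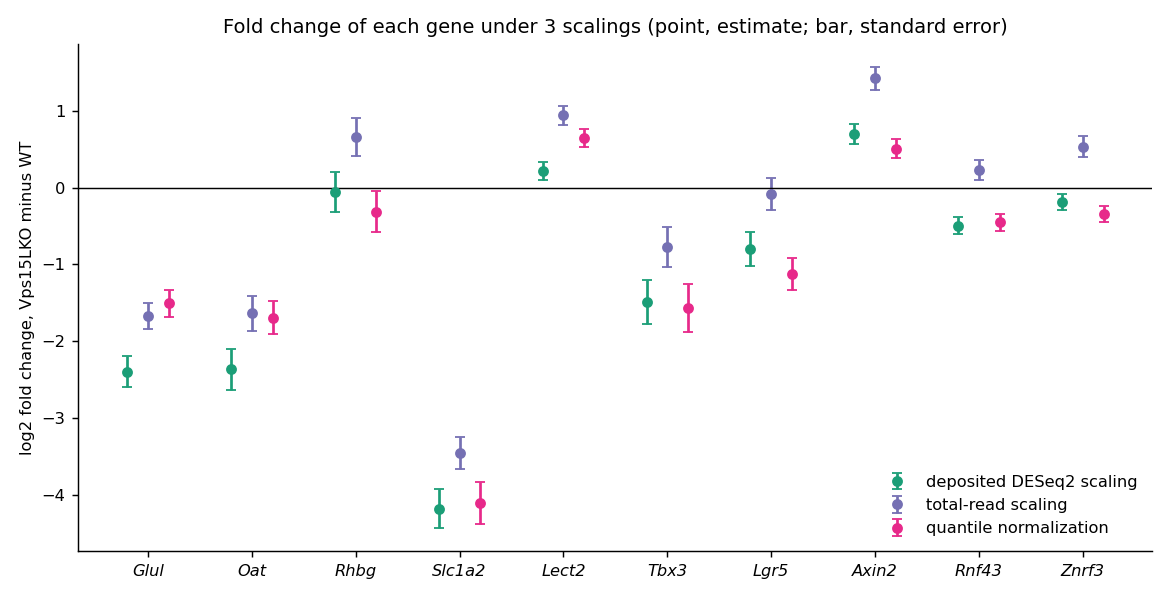
Log2 fold change, Vps15LKO minus WT (vertical axis), of the 10 genes under the deposited scaling, total-read scaling and quantile normalization, with bars for the standard error of limma's fit on 3 livers per genotype. Glul, Oat, Slc1a2, Tbx3 and Lgr5 lie below 0 and Axin2 and Lect2 above 0 under all 3, whereas Rhbg, Rnf43 and Znrf3 change sign. Lgr5 is close to 0, at −0.08, under total-read scaling.

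Ratios of 2 genes within 1 library, each taken on log2(normalized count + 1), depend on the library's size factor only through the added 1, although quantile normalization changes them. With 3 livers against 3 the smallest p an exact permutation test can give is 0.1, and 19 ratios were compared, so none could pass 0.05 and the values are given with their spread. The log2 ratio of Axin2 to Glul was −6.85 ± 0.03 (SD, n = 3) in WT livers against −3.75 ± 0.45 in Vps15LKO livers, a difference of 3.10 (exact permutation test, two-sided, p = 0.1, adjusted p = 0.127), which was 2.01 after quantile normalization. The log2 ratio of Slc1a2 to Glul went from −2.73 ± 0.08 to −4.52 ± 0.25 (SD, n = 3; exact p = 0.1), so Slc1a2 was lower relative to Glul in each Vps15LKO liver than in any WT liver, and the difference of −1.78 became −2.60 after quantile normalization. The ratio of Oat to Glul was −0.88 ± 0.43 in WT and −0.85 ± 0.15 in Vps15LKO livers (exact p = 0.9), and the difference of 0.03 turned to −0.19 after quantile normalization. Against Ctnnb1, which encodes beta-catenin, Glul went from 2.36 ± 0.17 to −0.48 ± 0.33 (exact p = 0.1). Axin2 to Ctnnb1 was −4.49 ± 0.20 and −4.23 ± 0.12, and the livers overlapped (exact p = 0.2), with a difference of 0.27 that turned to −0.64 after quantile normalization.

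Levels of different genes were compared per length, as RPKM, the reads divided by exonic length and by the total of reads of the library, which is a total-read scale. In WT livers Glul was highest at 255 ± 31.1 (SD, n = 3) and Oat followed at 202 ± 64.8, with overlapping livers. Lect2 came next at 88.5 ± 10.4 and Slc1a2 at 9.75 ± 1.73, each apart from its neighbours. Rhbg at 4.41 ± 1.37, Tbx3 at 4.31 ± 0.93 and Rnf43 at 4.10 ± 0.61 could not be separated, nor could Znrf3 at 1.45 ± 0.13 and Axin2 at 1.32 ± 0.18. Lgr5 was lowest at 0.88 ± 0.24.

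In Vps15LKO livers the order was different. Lect2 was highest at 170 ± 18.3, above every liver's value for Glul at 80.9 ± 18.2 and Oat at 62.8 ± 9.92, which overlapped. Rhbg at 6.98 ± 2.01 and Rnf43 at 4.78 ± 0.23 followed without overlap, and Axin2 at 3.57 ± 0.37 overlapped Tbx3 at 2.61 ± 1.05, which in turn overlapped Znrf3 at 2.10 ± 0.19. Slc1a2 at 0.90 ± 0.28 and Lgr5 at 0.81 ± 0.05 overlapped at the bottom. By this measure Slc1a2 ranked 3131 to 4054 of the 15430 genes in WT and 12895 to 14453 in Vps15LKO livers, whereas Lect2 moved from 518 to 619 up to 280 to 345.

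**Figure D3:**
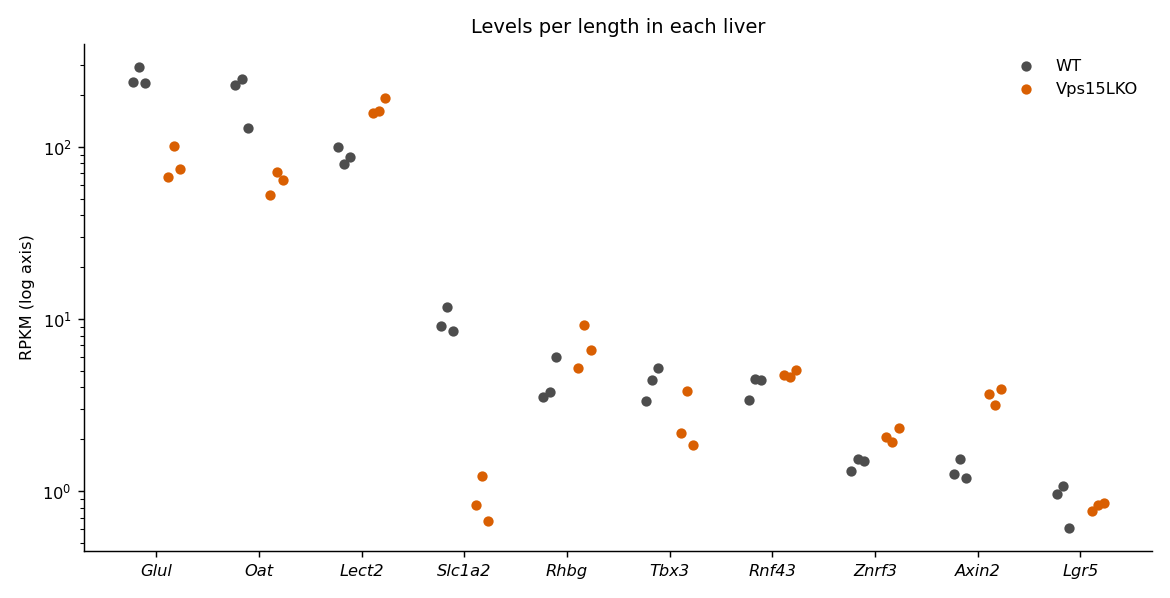
Reads per exon length and library total, in RPKM (vertical log axis) of the 10 genes in each liver, ordered by the WT mean, with grey points for WT and orange points for Vps15LKO livers. Glul leads in WT at a mean of 255 and Lect2 leads in Vps15LKO at a mean of 170, and Slc1a2 moves from the fourth place to the lowest levels.

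The genes whose profile over the 6 livers was nearest to that of Glul, by the root mean square difference of centred log2 values over the 11249 genes whose mean normalized count was 100 or more, were Teddm2 (0.107), Tlcd2 (0.108), Mir8114 (0.110), Tm7sf2 (0.120) and Oaf (0.123). Teddm2 and Mir8114 overlap Glul. Among those nearest to Axin2 were Abl1 (0.048), Mafk (0.061), Ttbk2 (0.065) and Cdk19 (0.065). None of the 10 target genes was among them.

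Of 11 other Wnt target genes outside the 10, 7 were tested, 2 were called lower and 4 higher, against 33.0% and 33.5% of all genes, with a median log2 fold change of 0.81. Under total-read scaling 1 was lower and 5 higher, against 11.1% and 66.8%. Notum, a secreted enzyme that inactivates Wnt ligands, had normalized counts of 1156, 1036 and 869 in WT and 263, 312 and 191 in Vps15LKO livers, and its log2 fold change was −2.01 ± 0.18 (SE, limma, adjusted p = 2.7e-05). Ccnd1, which encodes cyclin D1, went from 725, 651 and 1651 to 3023, 3066 and 3117. Myc, a growth regulator, went from 268, 96.2 and 67.4 to 1124, 912 and 934. These 3 kept their calls and directions under total-read scaling and quantile normalization. Nkd1, an inhibitor of Wnt signalling, was not called at 0.30 and was called higher under total-read scaling.

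Pericentral and periportal genes that are not among the 10 were mostly lower. Of 22 other pericentral hepatocyte genes, 19 were called lower and 2 higher, against 33.0% and 33.5% of all genes, with a median log2 fold change of −1.85, with 17 lower and 3 higher calls under total-read scaling (11.1% and 66.8% of all genes) and 16 and 3 under quantile normalization (37.6% and 30.4%). Of 20 periportal genes, 15 were called lower and 2 higher, with a median of −2.14, and these became 14 and 5 under total-read scaling and 14 and 4 under quantile normalization. Cyp2e1, a cytochrome P450 of the pericentral zone, had a log2 fold change of −3.47 and Cyp2c29 of −3.36. Gstm3, a glutathione transferase, rose by 4.04. Cyp1a2 was called lower at −0.57, was not called under total-read scaling and was called higher at 0.59 under quantile normalization. The periportal Cyp2f2 fell by 3.64, the gluconeogenic gene Pck1 fell by 3.03, and the urea cycle genes Ass1 and Cps1 fell by 2.24 and 1.86, with the same direction under the other scalings. The hepatocyte marker share of reads given above, which is mostly that of Alb, was lower in the same livers. Its part in these values was not tested.

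**Figure D4:**
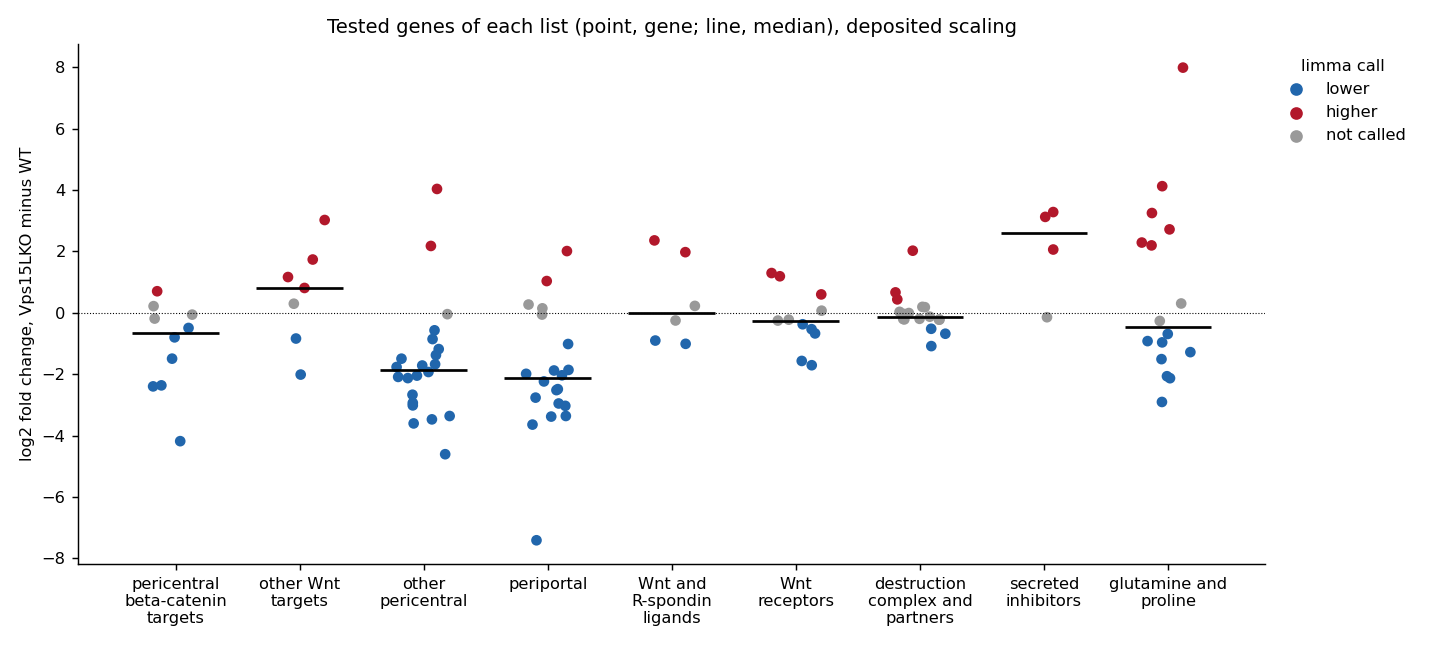
Log2 fold change, Vps15LKO minus WT, under the deposited scaling (vertical axis) for each tested gene of the 10 targets and 8 related lists, coloured by limma's call, with a line at the list's median. The other pericentral and the periportal genes have medians of −1.85 and −2.14, and the 10 targets have a median of −0.65.

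Upstream of the targets, 23 Wnt and R-spondin ligands were listed, 17 had a read in any liver and 6 passed the filter. Most ligands were thus too low to test, and 8 of the 23 held no more than 3 reads in every liver. Of the 6 tested, 2 were called lower and 2 higher (33.0% and 33.5% of all genes), and under total-read scaling 0 and 3 (11.1% and 66.8%). Wnt2, a ligand of central vein and sinusoidal endothelium, had normalized counts of 79.6, 77.4 and 60.7 in WT and 38.9, 48.6 and 29.0 in Vps15LKO livers, without overlap. Its log2 fold change was −0.90 ± 0.23 (SE, limma, adjusted p = 0.0080), and at −0.19 it was not called under total-read scaling. Wnt9b, the other ligand of the central vein, had 42.4, 37.5 and 36.4 in WT and 32.8, 25.1 and 41.0 in Vps15LKO livers, which overlap. It was not called at −0.25, nor at 0.46 under total-read scaling, and was called lower at −1.07 under quantile normalization.

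Rspo3, the R-spondin of the central vein, was close between genotypes at 111, 122 and 99.8 in WT and 115, 139 and 137 in Vps15LKO livers. It was not called at 0.23, nor at −0.17 under quantile normalization, and it was called higher at 0.95 under total-read scaling. Wnt4 rose from 50.4, 57.5 and 36.4 to 234, 204 and 314, and Wnt5a from 33.1, 18.7 and 37.7 to 114, 109 and 124, and each was called higher under all 3 scalings. Wnt5b had 87.5, 65.0 and 106 in WT and 42.8, 45.4 and 36.8 in Vps15LKO livers, and it was called lower at −1.01 but not under total-read scaling, at −0.30.

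A list of 13 Wnt inhibitors held secreted proteins and the receptors Kremen1 and Kremen2. Of these, 4 were tested, Kremen1 among them, and 3 were called higher (33.5% of all genes), with a median log2 fold change of 2.59. Frzb, which binds Wnt ligands, rose from 29.2, 32.5 and 25.6 to 278, 263 and 336. Dkk3, a member of the Dickkopf family, rose from 33.1, 33.7 and 39.1 to 282, 280 and 396, and Sfrp1, a secreted Frizzled-related protein, from 35.8, 33.7 and 36.4 to 134, 124 and 206. Their log2 fold changes were 3.28, 3.13 and 2.06, and they were called higher under all 3 scalings. The Vps15LKO livers of all 3 lay far above WT livers, as did the stellate cell and fibroblast marker sum, whose part in this was not tested. Kremen1, a receptor for Dickkopf proteins, was not called at −0.14, and was called higher under total-read scaling.

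**Figure D5:**
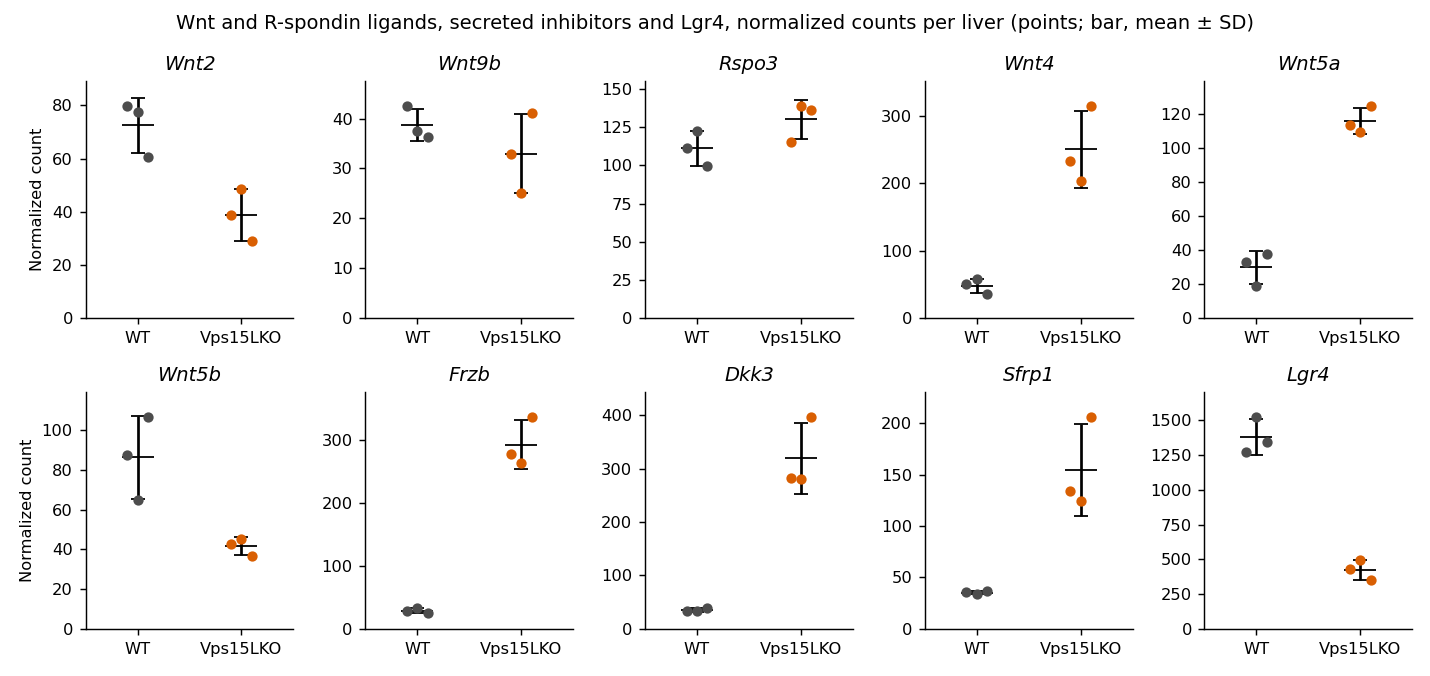
Normalized counts (vertical axis, from 0, a separate scale per gene) of the 6 ligands that passed the filter, of 3 secreted inhibitors and of the receptor Lgr4 in each liver, with bars for the mean ± SD (n = 3 per genotype). Frzb, Dkk3 and Sfrp1 lie higher and Lgr4 lower in Vps15LKO livers without overlap, and the livers overlap for Wnt9b and Rspo3.

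Among 17 Wnt receptors, 11 were tested, 5 were called lower and 3 higher, against 33.0% and 33.5% of all genes. Total-read scaling gave 2 lower and 7 higher calls, against 11.1% and 66.8%. Lgr4, an R-spondin receptor of hepatocytes, fell from 1272, 1523 and 1347 to 428, 495 and 351. Its log2 fold change was −1.71 ± 0.14 (SE, limma, adjusted p = 1.4e-05), and it stayed lower at −0.98 under total-read scaling. Lrp5 and Lrp6 encode co-receptors. Lrp6 was called lower at −0.53 but not under either other scaling, with a positive value of 0.19 under total-read scaling, and Lrp5 was not called at 0.07 and was called higher under both. Ryk was not called at −0.22 and was called higher at 0.50 under total-read scaling.

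Of 18 genes of the destruction complex and of the transcription partners of beta-catenin, 17 were tested, 3 were called lower and 3 higher, against 33.0% and 33.5% of all genes, with a median log2 fold change of −0.13. Total-read scaling called 1 lower and 13 higher, against 11.1% and 66.8%. The median was 0.60 under total-read scaling and 0.11 under quantile normalization. Ctnnb1 itself rose from 3654, 3772 and 3726 to 4821, 5265 and 5027. Its log2 fold change was 0.44 ± 0.09 (SE, limma, adjusted p = 0.0029), and it was called higher at 1.16 under total-read scaling and 1.15 under quantile normalization. Dvl2, which relays the signal from the receptors, was called lower at −1.08 and under the other scalings. Tcf7l2, the main TCF factor of hepatocytes, had 412, 422 and 391 in WT and 319, 271 and 265 in Vps15LKO livers, and it was called lower at −0.52 but at 0.20 was not called under total-read scaling. Axin1, Csnk1a1 and Gsk3a, all of the destruction complex, were not called at −0.21, −0.01 and −0.22, and total-read scaling called each of them higher, as quantile normalization did Csnk1a1, at 0.41.

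Glul, Oat, Slc1a2 and Rhbg handle glutamine, glutamate, ornithine or ammonium, and 19 other genes of glutamine, glutamate and proline handling were listed for comparison. Of these, 16 were tested, 8 were called lower and 6 higher, against 33.0% and 33.5% of all genes, with a median log2 fold change of −0.48. Total-read scaling called 5 lower and 8 higher, against 11.1% and 66.8%. The glutamine transporter Slc38a3 fell by 2.07 and Slc38a4, a transporter of neutral amino acids, fell by 2.13, each also called lower under the other scalings. Glud1, which encodes glutamate dehydrogenase, was called lower at −0.69 but higher at 0.46 under quantile normalization. Got2, the mitochondrial aspartate aminotransferase, was called lower at −0.96 and was not called under either other scaling.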

How the data were processed

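Liver RNA of 6 mice, 3 per genotype, was sequenced, 1 library each. Per the methods and labels, the authors used SOAPnuke for read filtering, HISAT2 for alignment (GRCm38), featureCounts for gene counts and DESeq2 for normalization. Tool versions and the strand setting of the counting are not given in the sources used here. The deposited signal values are counts divided by 1 size factor per library, and 100% of values above 0 were whole multiples of 1 read (tolerance 0.01), so whole reads were recovered. The reads on genes (16137093 to 18110223 per library) set the precision. Symbols, coordinates and exonic lengths come from GENCODE M21, matched for 55227 genes. log2(normalized count + 1) was compared with limma 3.58.1 and its trend option (R 4.3.3). P-values were adjusted by Benjamini-Hochberg over the 15430 genes with at least 20 in at least 3 livers. Fold changes on this scale understate those of low genes. Genotype groups come from the labels, and p-values measure the spread between 3 livers each.

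The 10 genes and the gene lists were chosen with earlier results of these data known. Named genes are the 10, the 4 highest genes of each list, every called ligand, Ctnnb1, Tcf7l2, Lgr4, Axin1, Pik3r4, and the 5 profiles nearest to Glul and to Axin2. Wnt9b and overlapping genes were added because a result touches them, and some items that the rule names are not reported here. For the cell type lists sums, shares and counts are given, with Alb, Tf, Spp1, Col1a1 and Col3a1 alone named. Alternatives were pseudocounts of 0.1 and 10, other filters and folds, 4 scalings, edgeR 4.0.16, DESeq2 1.42.0 and voom on the recovered reads, each liver left out, and the replicate number as a block. On simulated counts the test recovered most genes given large folds, but its share of false calls lay above the nominal rate, and the pass limits of that check were loosened after the first ones were missed. Figures were drawn with matplotlib 3.10.9.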

Additional observations from a re-analysis of the deposited data

How the results depend on the processing

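Of 200 refits of the 10 genes (20 alternatives each), 186 kept the direction and the side of the threshold, 2 lost the call, 5 gained one and 7 changed sign. Scaling to equal totals of reads moved most: 1712 genes were then called lower and 10300 higher, and 4 of the 10 genes were called higher. Upper-quartile scaling and quantile normalization each called 2 of the 10 higher. Rhbg turned to 0.66 under total-read scaling and to 0.064 under upper-quartile scaling, and ranged from −0.32 to 0.15 when each liver was left out, being positive without WT replicate 3, Vps15LKO replicate 1 or Vps15LKO replicate 3. Rnf43 turned to 0.23 and Znrf3 to 0.54 under total-read scaling. Leaving out 1 liver gave 1 to 2 genes called higher, 2 without WT replicate 1, where Lect2 was called. A fold of at least 1.5 ended the call of Rnf43. Replicate numbers did not pair the livers (correlations of deviations of same-numbered livers −0.0099, −0.0114 and 0.0485, and not every liver correlated best with its own number), and with the replicate number as a block 10048 genes were called, and again 6 of the 10 lower and 1 higher. On the recovered reads edgeR called 10320 genes, 66.9% of those tested. Lgr5, Axin2 and Rhbg rest on 101 to 387 reads per library, which limits what can be said of small changes in them.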
